A study of Mus musculus with 10 samples.

Results

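Transcripts of 10 genes of the extracellular matrix were measured by sequencing of polyadenylated RNA in primary neurons of mouse hippocampus, dissociated from the tissue and kept in culture for 10 days. The genes encode the 4 lecticans Ncan, Bcan, Acan and Vcan, the link protein Hapln1, the tenascins Tnc and Tnr, the glycoprotein Fn1, and the small leucine-rich proteoglycans Prelp and Dcn. They were chosen by symbol through GENCODE mouse M21, 10 of the 48709 gene identifiers in each count table. All 10 were among the 15660 genes with enough counts to be tested. Prelp and Fn1 had been picked because they moved in these same libraries, so their values are a description without a test, while the other 8 were taken as a family. Of the groups, 6 libraries came from cultures given tunicamycin at 2 ug/mL for 6 h, and 4 from cultures given DMSO for the same time. The labels give no strain, animal age, number of animals or genotype, and do not say whether each library had a culture of its own. P-values therefore measure the spread between libraries, which may be technical.

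The matrix of the brain is built on hyaluronan, a long sugar chain made at the cell surface. Lecticans are chondroitin sulfate proteoglycans that bind hyaluronan at one end and tenascins at the other, and link proteins hold the lectican to the hyaluronan. Around some neurons, many of them parvalbumin-positive interneurons, this lattice condenses into perineuronal nets, which mature late and limit synaptic plasticity. Fibronectin and the small leucine-rich proteoglycans belong to the fibrillar matrix of meninges, vessels and scars. All of these proteins are secreted through the endoplasmic reticulum (ER), and tunicamycin stops N-linked sugars from being built there.

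Between 2.11e+07 and 2.92e+07 counts were assigned to genes per library. Hspa5, the main ER chaperone, was higher in all 6 tunicamycin libraries than in any DMSO library and averaged 3211 ± 150 CPM (counts scaled to a library total of 1000000) with tunicamycin and 613 ± 44.7 CPM with DMSO (SD, n = 6 and 4). Ddit3, a stress transcription factor, averaged 264 ± 13.1 CPM with tunicamycin and 34.4 ± 1.57 CPM with DMSO. In a quasi-likelihood fit by edgeR over all genes, 64.3% were called at an adjusted p under 0.05, 31.8% higher and 32.5% lower with tunicamycin. Markers of neurons summed to 6423 to 6747 CPM with tunicamycin and 7605 to 8106 CPM with DMSO, and 8 of 10 were called lower. Markers of astrocytes were present in every library at 2061 to 2286 CPM with tunicamycin and 2967 to 3342 CPM with DMSO. The RNA is of whole cultures, in which fewer cells of a type and less RNA per cell cannot be told apart.

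Of the 8 genes taken as a family, 6 were called lower with tunicamycin, against 32.5% of all genes tested, and 1 was called higher, against 31.8%. Those called lower were Ncan, Bcan, Acan, Vcan, Hapln1 and Dcn, with losses of 1.24-fold to 1.66-fold. Changes larger in size than theirs were common among all genes tested, at 10.99% of genes for Hapln1 and 18.86% for Bcan. The same share was 26.81% for Dcn, 33.69% for Ncan, 34.14% for Acan and 42.79% for Vcan. Tnc rose 2.56-fold, and Tnr was not called. In CPM the libraries of the groups did not overlap for 7 of the 8, against 50.9% of all genes tested. In TPM, a unit like CPM that also allows for gene length, Dcn and Vcan overlapped as well as Tnr. Of the genes picked for their moves, Prelp was 5.94-fold lower and Fn1 2.39-fold higher with tunicamycin. The log2 fold changes of the 8 family genes ran from -0.73 to 1.36.

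**Figure D1:**
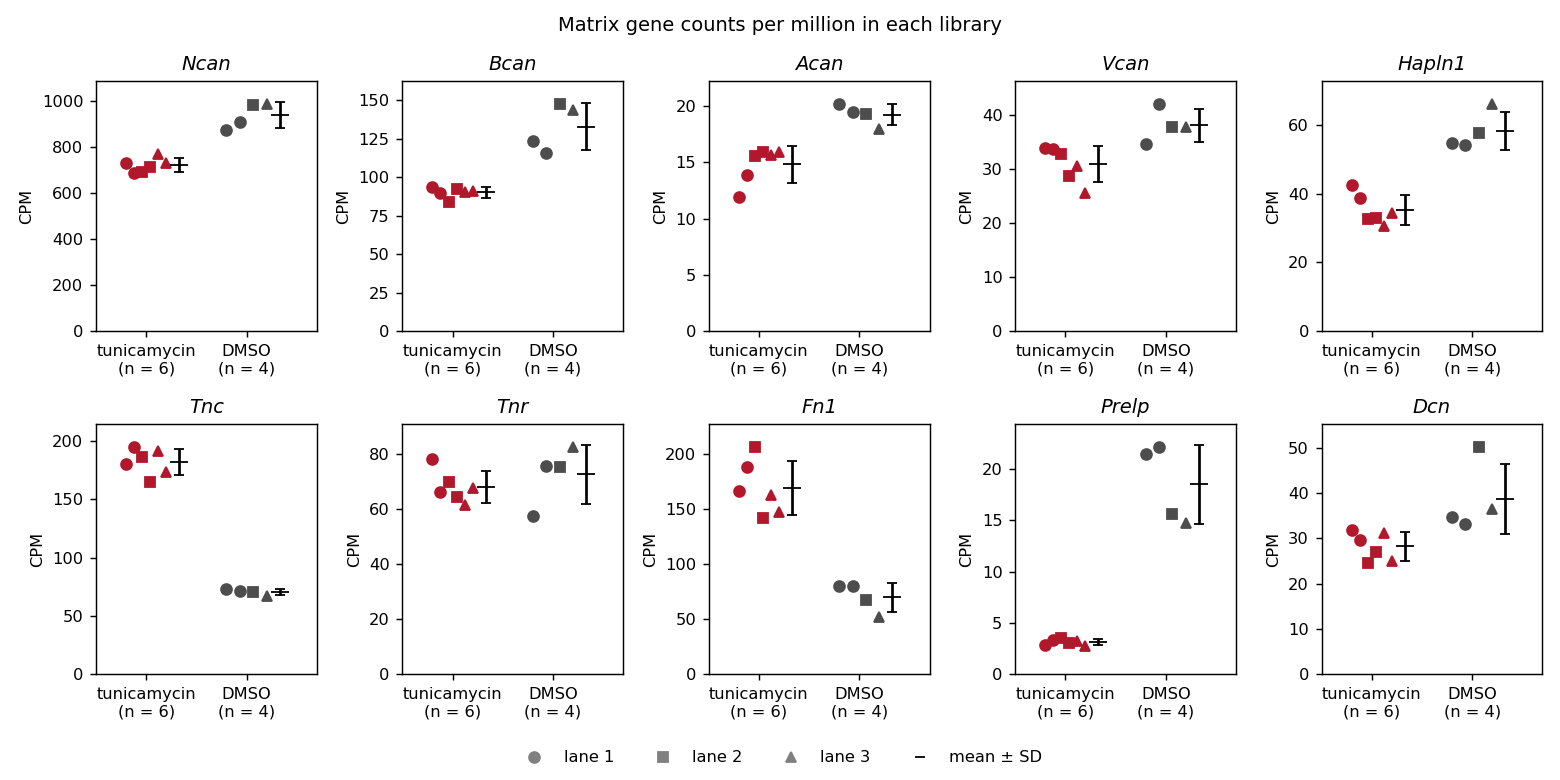
CPM of each matrix gene in each library, with tunicamycin libraries in red on the left, DMSO libraries in grey on the right, point shape for sequencing lane, and the mean ± SD as black bars. Tnc and Fn1 lie higher in all 6 tunicamycin libraries than in the 4 DMSO libraries, Tnr overlaps, and the other 7 genes lie lower.

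All 4 lecticans were called lower. Summed over the 4 genes they averaged 857 ± 32.0 CPM with tunicamycin and 1128 ± 68.3 CPM with DMSO, at 822 to 908 CPM with tunicamycin and 1054 to 1187 CPM with DMSO. Most of that sum was Ncan, which held on average 84.1% of the lectican counts with tunicamycin and 83.2% with DMSO. Ncan encodes neurocan, the lectican most typical of developing brain (ENSMUSG00000002341, chromosome 8, 70093085 to 70120873, minus strand, GRCm38). Ncan stood at 689, 721 and 771 CPM in the lowest, median and highest tunicamycin library, against 876, 909, 981 and 988 CPM in the 4 DMSO libraries. Every DMSO library was above every tunicamycin library, at a log2 fold change of -0.39 ± 0.04 SE (adjusted p = 4.9e-08 by edgeR).

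Bcan encodes brevican, a lectican made largely by astrocytes and a constituent of nets (ENSMUSG00000004892, chromosome 3, 87987531 to 88000230, minus strand). Its tunicamycin libraries held 84.0, 90.8 and 94.0 CPM at the lowest, median and highest, against 124, 116, 148 and 144 CPM with DMSO. The tunicamycin values were tight, with a coefficient of variation of 3.82%, while DMSO libraries varied by 11.6% and fell into a lower pair from lane 1 and a higher pair from lanes 2 and 3. The log2 fold change of Bcan came to -0.57 ± 0.07 SE (adjusted p = 5.09e-06 by edgeR).

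Acan encodes aggrecan, the lectican by which nets are most often stained (ENSMUSG00000030607, chromosome 7, 79053483 to 79115099, plus strand). Acan stood at 11.9, 15.6 and 16.0 CPM in the lowest, median and highest tunicamycin library, and at 20.2, 19.5, 19.3 and 18.0 CPM in the DMSO libraries. The groups did not overlap, at a log2 fold change of -0.39 ± 0.07 SE (adjusted p = 5.27e-05 by edgeR). Vcan encodes versican, a lectican of immature matrix and of several cell types (ENSMUSG00000021614, chromosome 13, 89655312 to 89742509, minus strand). It held 25.7, 31.7 and 33.9 CPM at the lowest, median and highest with tunicamycin, against 34.6, 42.1, 37.8 and 37.8 CPM with DMSO. The highest tunicamycin library came within 1 CPM of the lowest DMSO library, and its log2 fold change was -0.31 ± 0.08 (SE; adjusted p = 0.00208 by edgeR).

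The makeup of the lectican pool was compared as each gene's share of the 4 genes' counts per kilobase of exon, a measure that library scaling does not touch. Ncan made up 79.2% ± 0.624 of the pool with tunicamycin and 77.5% ± 0.899 with DMSO (SD, n = 6 and 4). The difference of 1.65 percentage points had an exact permutation p of 0.0143, adjusted to 0.0381 over the 4 shares (two-sided, 210 splits, smallest p possible 0.00476). Bcan made up 17.6% ± 0.593 with tunicamycin and 19.4% ± 1.14 with DMSO, a difference of -1.81 points (exact permutation p = 0.019, adjusted 0.0381). The shares of Vcan (1.69% with tunicamycin and 1.57% with DMSO) and Acan (1.57% with tunicamycin and 1.54% with DMSO) were not called, with adjusted exact permutation p of 0.406 and 0.786. The shares sum to 100%, so the 4 tests are not independent. The calls for Ncan and Bcan were lost when DMSO replicate 1, 3 or 4 or tunicamycin replicate 1, 3, 5 or 6 was left out (adjusted exact permutation p of 0.0635 to 0.0952). With each of the 10 libraries left out in turn, the differences ran from 1.36 to 2.07 points for Ncan and from -2.34 to -1.46 points for Bcan. Within lanes 1, 2 and 3 they were 0.650, 2.30 and 2.57 points for Ncan, and -0.559, -2.82 and -2.85 points for Bcan.

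Hapln1, the link protein whose loss thins perineuronal nets in mice, fell as well (ENSMUSG00000021613, chromosome 13, 89539796 to 89611652, plus strand). Hapln1 held 30.7, 33.7 and 42.4 CPM in the lowest, median and highest tunicamycin library, against 54.8, 54.2, 57.7 and 66.1 CPM in DMSO libraries. Its groups were apart, tunicamycin cultures being at 60.3% of the DMSO level, at a log2 fold change of -0.73 ± 0.10 SE (adjusted p = 6.26e-05 by edgeR). Set against the lecticans in TPM, Hapln1 was 4.73% ± 0.635 of their sum with tunicamycin and 5.85% ± 0.341 with DMSO, and these ranges overlapped. The difference between the fall of Hapln1 and that of the lecticans was not tested.

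Each lectican gene has a link protein gene as its neighbour, with no protein-coding gene between them. Vcan and Hapln1 lie 43.7 kb apart, Bcan and Hapln2 21.5 kb, Ncan and Hapln4 2.22 kb, and Acan and Hapln3 only 2 bases, with their ends facing. The values of these neighbours were looked at after the others had been seen. Hapln3 had a log2 fold change of -1.40 beside -0.39 for Acan, but was low, at 0.723 CPM with tunicamycin and 1.91 CPM with DMSO. Hapln4, a link protein of nets in the brainstem and cerebellum, was not called at 0.08 beside -0.39 for Ncan. Hapln2 had too few counts to be tested.

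Of 13 other genes of hyaluronan synthesis and turnover and link proteins that could be tested, 4 rose and 8 fell, and the median of their log2 fold changes was -0.55 and their mean -0.15, beside a median of -0.02 over all genes. DESeq2, which gave values for all 15 genes of the list, put the median at -0.19 with the same counts of 4 higher and 8 lower. Cemip, which binds and breaks down hyaluronan, rose to 48.9 ± 3.16 CPM with tunicamycin, against 39.0 ± 0.92 CPM with DMSO (SD, n = 6 and 4). Cemip2, a cell-surface hyaluronidase, fell to 18.0 ± 0.493 CPM, against 26.2 ± 1.97 CPM with DMSO. Named after their values were seen, the synthase Has2 rose by a log2 fold change of 1.45 and the hyaluronan receptor Cd44 by 0.96. Has2 was low, at 0.954 CPM with tunicamycin and 0.347 CPM with DMSO. The synthase Has3, likewise named afterwards, was called lower, at 6.69 CPM with tunicamycin and 9.89 CPM with DMSO (log2 fold change -0.57, edgeR adjusted p = 2.12e-06).

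Of the tenascins, which tie lecticans to each other at the end away from hyaluronan, Tnc rose and Tnr was not called. Tnc is the tenascin of embryonic brain and of reactive astrocytes (ENSMUSG00000028364, chromosome 4, 63959785 to 64047015, minus strand). Its tunicamycin libraries stood at 165, 183 and 195 CPM at the lowest, median and highest, against 73.0, 71.5, 70.7 and 67.5 CPM with DMSO. The groups were far apart, and the DMSO libraries had a coefficient of variation of 3.32%. On the log2 scale the change came to 1.36 ± 0.04 SE (adjusted p = 9.75e-17 by edgeR), and 2.0% of all genes tested had a change larger in size.

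Tnr is the tenascin of mature nets, made by the oligodendrocyte lineage and some neurons (ENSMUSG00000015829, chromosome 1, 159523769 to 159931729, plus strand). Tnr stood at 61.5, 66.9 and 78.2 CPM in the lowest, median and highest tunicamycin library, and at 57.4, 75.4, 75.3 and 82.5 CPM with DMSO. The groups overlapped, DMSO replicate 1 being the lowest of all 10 libraries, and the log2 fold change of -0.11 ± 0.10 was not called (SE, 95% interval -0.34 to 0.13; edgeR adjusted p = 0.408). Without DMSO replicate 1 it was -0.21 and was called (edgeR adjusted p = 0.00828). The ratio of Tnc to Tnr in TPM was 4.46 ± 0.486 with tunicamycin and 1.65 ± 0.322 with DMSO, at 3.81 to 5.16 with tunicamycin and 1.35 to 2.11 with DMSO, so that Tnc was the more abundant tenascin in every library.

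The 250 bases before the outermost annotated Tnc start are shown because Tnc is the family's single riser (chr4:64047016-64047265, minus strand, GRCm38.p6, sequence from RefSeq). Capitals mark the letters TATAAA, 126 bases before that start.
Tnc: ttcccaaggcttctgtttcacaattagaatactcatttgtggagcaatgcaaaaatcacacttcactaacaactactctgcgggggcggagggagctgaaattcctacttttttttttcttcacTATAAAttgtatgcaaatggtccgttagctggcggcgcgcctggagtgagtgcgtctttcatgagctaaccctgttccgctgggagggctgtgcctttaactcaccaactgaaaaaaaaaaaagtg
RefSeq gives Tnc another start further into the gene, from which the same letters lie 205 bases away. Windows of 300 bases around the start of 8 of the 10 genes, 9 windows in all, were searched on both strands for the unfolded protein response element TGACGTGG, the C/EBP-ATF element TGATGNAAN, the cAMP response element TGACGTCA and the AP-1 site TGANTCA. The first and the third of these share the letters TGACGT. None of the 4 motifs was in any of the 9 windows. They are in 0.676%, 3.95%, 1.79% and 7.81% of 32851 promoter windows of the same length, in that order. TATAAA, held by 13.6% of all windows, was in the windows of Tnc and Ncan.

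Fn1 encodes fibronectin, a fibril-forming glycoprotein that cells grip through integrins (ENSMUSG00000026193, chromosome 1, 71585520 to 71653200, minus strand). Picked for its move, it stood at 142, 164 and 206 CPM in the lowest, median and highest tunicamycin library, against 80.0, 80.1, 67.8 and 52.5 CPM in the DMSO libraries. Every tunicamycin library was above every DMSO library, with a log2 fold change of 1.26 ± 0.15 (SE), rank 263 from the top of all genes tested. Its spread between libraries was wide, at 14.5% with tunicamycin and 18.7% with DMSO.

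Prelp encodes a small leucine-rich proteoglycan that binds collagen and heparan sulfate (ENSMUSG00000041577, chromosome 1, 133910304 to 133921414, minus strand). Also picked for its move, it stood at 2.77, 3.14 and 3.55 CPM in the lowest, median and highest tunicamycin library, against 21.4, 22.1, 15.6 and 14.7 CPM with DMSO. All tunicamycin libraries held under 4 CPM and lay close together, while the DMSO libraries from lane 1 lay above those from lanes 2 and 3. The log2 fold change was -2.57 ± 0.12 (SE), rank 8 from the bottom of all genes tested. Prelp rested on 64 to 93 counts per tunicamycin library, against 325 to 598 with DMSO.

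The 250 bases before the Prelp start are shown because no other gene of the 10 differed as much between the groups (chr1:133921402-133921651, minus strand, GRCm38.p6, sequence from RefSeq). Capitals mark the letters CCAAT, 15 bases before the start.
Prelp: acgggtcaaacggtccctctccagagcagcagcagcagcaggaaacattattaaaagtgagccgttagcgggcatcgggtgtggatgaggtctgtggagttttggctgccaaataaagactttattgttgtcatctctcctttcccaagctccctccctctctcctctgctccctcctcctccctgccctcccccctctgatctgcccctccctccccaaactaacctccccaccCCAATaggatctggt
CCAAT is in 37.4% of all promoter windows and was also found on one strand or the other for Acan, Bcan and Vcan.

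Dcn encodes decorin, a small leucine-rich proteoglycan that coats collagen fibrils and binds TGF-beta (ENSMUSG00000019929, chromosome 10, 97479609 to 97518143, plus strand). Its tunicamycin libraries held 24.7, 28.3 and 31.9 CPM at the lowest, median and highest, against 34.8, 33.2, 50.2 and 36.5 CPM with DMSO. The groups were apart by a small gap, and DMSO replicate 3 stood above the other three. On the log2 scale the change came to -0.46 ± 0.13 SE (adjusted p = 0.0134 by edgeR). Without DMSO replicate 3 it was -0.30 and still called (edgeR adjusted p = 0.00319).

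Of 8 other small leucine-rich proteoglycan genes that could be tested, none rose and 4 fell by edgeR (0 higher at an unadjusted p under 0.05, and 0 higher and 4 lower by DESeq2), and the median of their log2 fold changes was -0.59. Ecm2 fell to 4.84 ± 0.706 CPM with tunicamycin, against 12.8 ± 1.17 CPM with DMSO (SD, n = 6 and 4), a log2 fold change of -1.43. Fmod, which encodes the collagen-binding fibromodulin and lies 116 kb from Prelp, fell to 21.2 ± 2.97 CPM, against 48.2 ± 14.4 CPM with DMSO. Ogn and Nyx were the others called lower. Optc, a nearer neighbour of Prelp at 2.30 kb and added after its values were seen, was not called. Its log2 fold change was -0.32 (edgeR adjusted p = 0.115). Lum, the neighbour of Dcn at 47.0 kb, averaged 3.23 ± 0.936 CPM with tunicamycin and 4.56 ± 1.60 CPM with DMSO and was not called (edgeR adjusted p = 0.102).

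Markers of fibroblasts, meningeal and mural cells, the usual sources of Fn1, Dcn and Prelp outside neural tissue, summed to 101 to 189 CPM with tunicamycin and 109 to 243 CPM with DMSO. Of 10 markers, 9 could be tested, Foxc1 rose (log2 fold change 1.63), Rgs5 fell (-0.62) and the others were not called. DESeq2 called 2 of these markers higher and 2 lower, and edgeR with lane as a term 2 higher and 1 lower. Kcnj8 was at 0 in 2 libraries and no marker was at 0 in all. In the DMSO libraries the sum ran at 214, 243, 156 and 109 CPM, and Fn1 and Prelp were likewise higher in replicates 1 and 2. Dcn was not, at 34.8 and 33.2 CPM in replicates 1 and 2 and 50.2 and 36.5 CPM in replicates 3 and 4. Only replicate 3 stood far from the rest. Between the groups, the sums overlapped while the CPM of Fn1, Prelp and Dcn did not. Fn1 and Prelp had been picked for their moves between these groups, and Dcn overlapped in TPM. Collagen genes of fibrillar and basement membrane matrix were mostly not called either: of 12 tested, none rose by edgeR (0 at an unadjusted p under 0.05, and 0 by DESeq2) and Col5a1 alone fell (log2 fold change -0.19; edgeR adjusted p = 0.00372). Of these 12, Col1a1, Col1a2 and Col3a1 are also among the markers. They made up most of the marker sum, averaging 54.2, 33.3 and 35.7 CPM with tunicamycin and 76.4, 32.3 and 29.9 CPM with DMSO. The marker sum and the collagen list are therefore not independent. The part of these cells in the changes of Fn1, Prelp and Dcn was not tested.

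**Figure D2:**
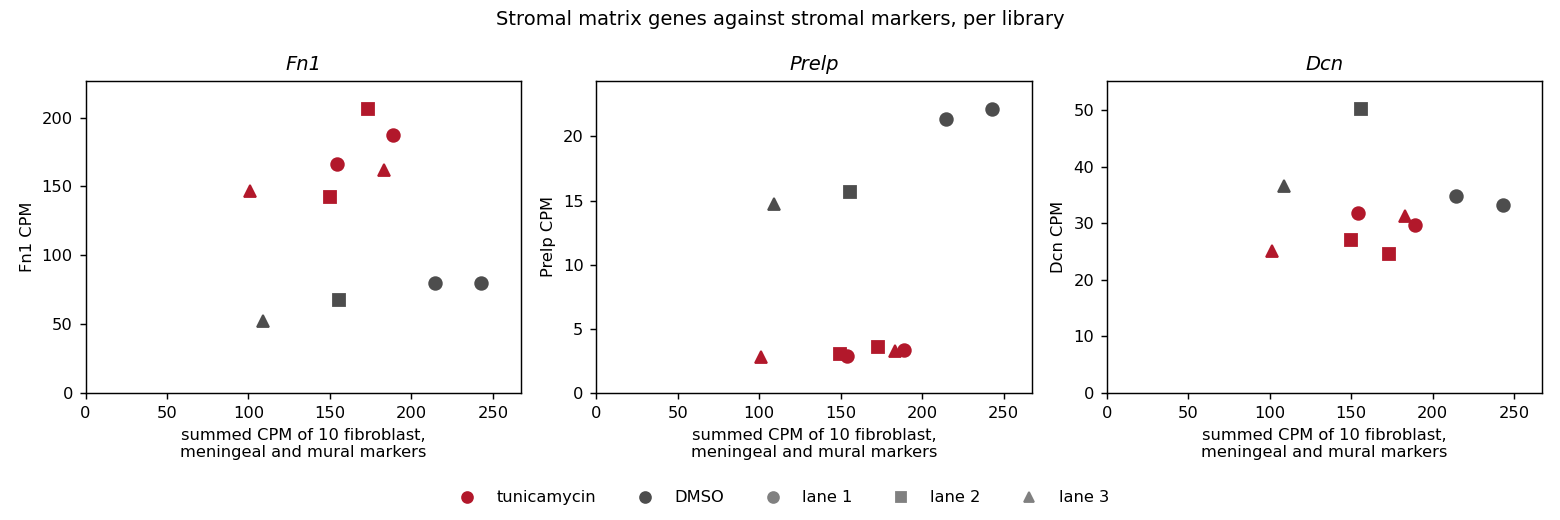
CPM of Fn1, Prelp and Dcn on the vertical axes against the summed CPM of 10 fibroblast, meningeal and mural markers on the horizontal axes, 1 point per library, with tunicamycin in red, DMSO in grey and point shape for lane. The marker sums of the groups overlap (101 to 189 CPM with tunicamycin and 109 to 243 CPM with DMSO), while the genes' own CPM do not. Col1a1, Col1a2 and Col3a1 make up most of the marker sum. Fn1 and Prelp were picked for their moves, and Dcn overlaps in TPM.

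Bcan, Vcan and Tnc are made in good part by astrocytes and oligodendrocyte precursors, and the summed markers of these cells were lower with tunicamycin. All 10 astrocyte markers tested fell (median -0.64 on the log2 scale), among them Slc1a3 (-0.83) and Glul (-1.18), and Gjb6, which could not be tested, was at 0 in 1 library. Markers of oligodendrocyte precursors summed to 108 to 130 CPM with tunicamycin and 161 to 216 CPM with DMSO, with Pdgfra and Olig1 lower among 4 tested. Most of that sum was Olig1, at 80.6 CPM with tunicamycin and 148 CPM with DMSO. Olig2 (log2 fold change -0.20) and Lhfpl3 (0.11) were not called. Markers of proliferating cells summed to 62.5 to 73.5 CPM with tunicamycin and 97.7 to 123 CPM with DMSO, and all 8 fell. Counts of markers for each cell type stand beside 31.8% called higher and 32.5% called lower among all genes tested. Oligodendrocyte markers were low, at 34.0 to 36.9 CPM with tunicamycin and 40.7 to 48.1 CPM with DMSO, Mog being called higher and Cnp lower, and Mag was at 0 in 5 libraries. Microglial markers were lower still, at 11.9 to 14.5 CPM with tunicamycin and 16.5 to 20.3 CPM with DMSO, with 5 of 7 called lower. Endothelial markers summed to 52.6 to 79.1 CPM with tunicamycin and 35.6 to 75.1 CPM with DMSO, of which Flt1 was called higher and Cldn5 was at 0 in 7 libraries. Nearly all of that sum was Kdr, at 58.4 CPM with tunicamycin and 50.6 CPM with DMSO. The part of these cells in the changes of the matrix genes was not tested.

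**Figure D3:**
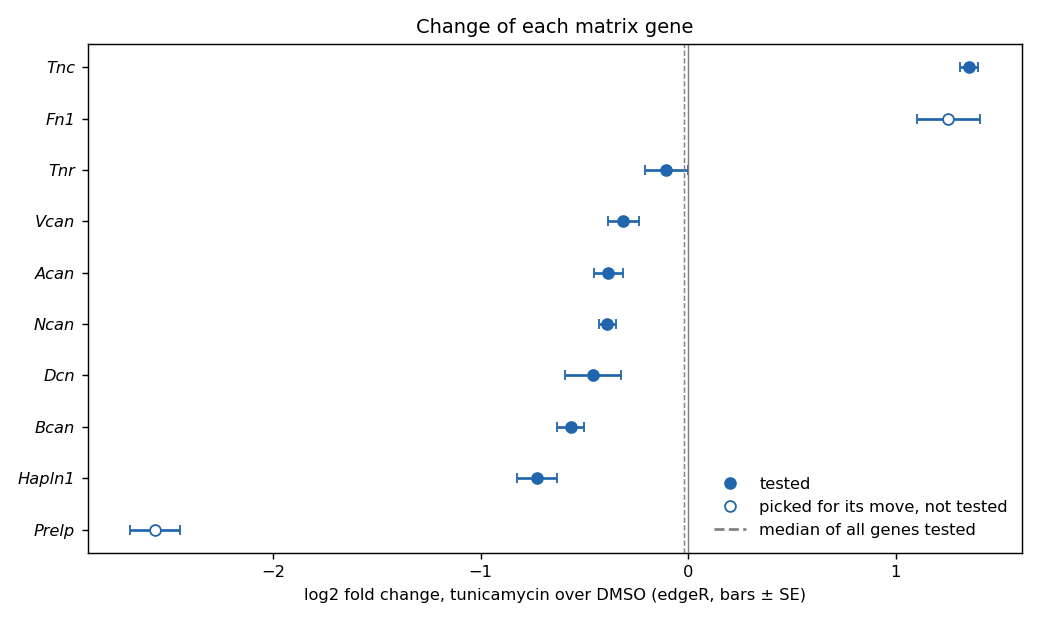
Log2 fold change of each matrix gene, tunicamycin over DMSO, from the edgeR fit over all genes, with bars of ± SE, filled points for the 8 tested genes and open points for those picked for their moves. Tnc at 1.36 and Fn1 at 1.26 lie to the right of the dashed median of all genes (-0.02), Prelp at -2.57 lies far to the left, and the bar of Tnr reaches to 0.

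Levels of different genes can be set side by side only in TPM. With tunicamycin the order was Ncan at 427 TPM, Tnc 99.8, Bcan 94.8, Fn1 61.5, Hapln1 25.5, Tnr 22.5, Dcn 20.6, Vcan 9.12, Acan 8.45 and Prelp 3.70 TPM. The libraries of Tnc and Bcan, of Hapln1, Tnr and Dcn in a chain, and of Vcan and Acan overlapped, while Ncan, Fn1 and Prelp stood clear of their neighbours. With DMSO the order was Ncan at 521 TPM, Bcan 131, Hapln1 39.4, Tnc 36.3, Dcn 26.5, Fn1 24.0, Tnr 22.6, Prelp 20.4, Vcan 10.5 and Acan 10.3 TPM. There the libraries of Hapln1 and Tnc, of Dcn, Fn1, Tnr and Prelp in a chain, and of Vcan and Acan overlapped, and Ncan and Bcan stood clear of the rest.

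**Figure D4:**
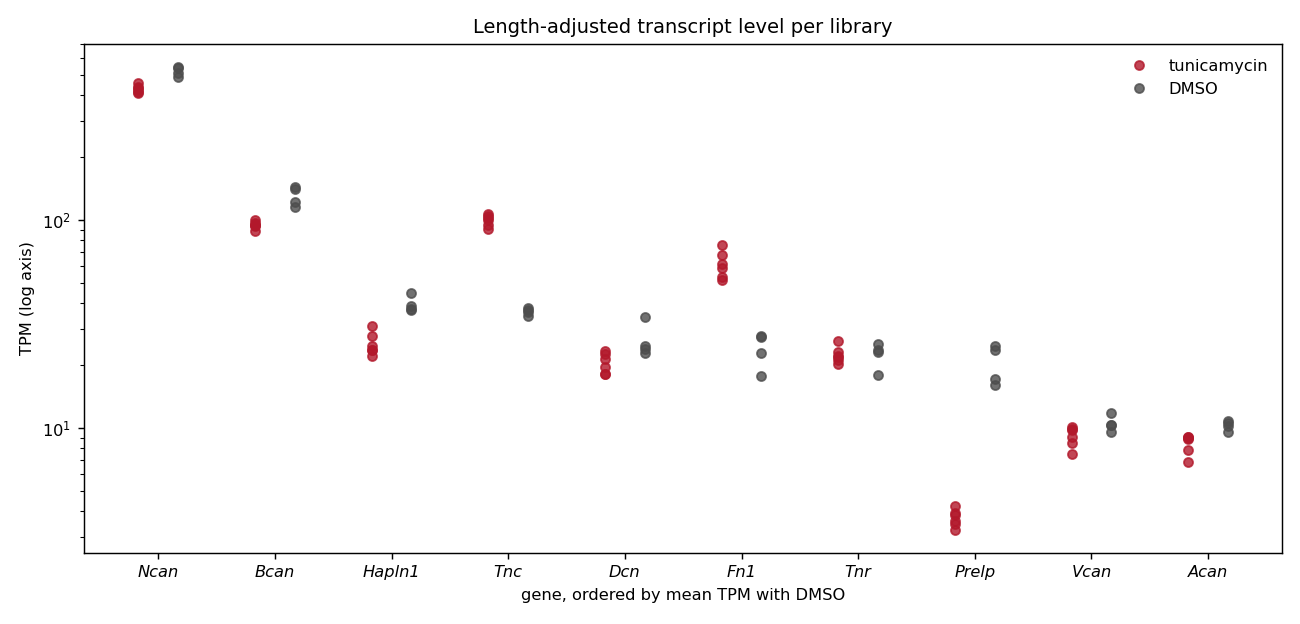
TPM of each matrix gene in each library on a log axis, with tunicamycin libraries in red to the left of DMSO libraries in grey and genes ordered by their mean with DMSO. Ncan is highest in both groups (427 TPM with tunicamycin and 521 TPM with DMSO), Tnc comes level with Bcan in the tunicamycin libraries, and Prelp is at the foot of the order with tunicamycin, while Vcan and Acan lie below it with DMSO.

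Other genes of the matrix pathway, taken from lists, were described in the same fit. Of 179 that could be tested in 10 lists, 32 rose and 75 fell, and the median of their log2 fold changes was -0.17 beside -0.02 over all genes. The counts of each list stand beside 31.8% called higher and 32.5% called lower among all genes tested. Upper-quartile scaling moved the median of all genes by -0.115, and under it the pathway counts were 26 higher and 101 lower and those of all genes 3632 higher and 6934 lower, beside 4983 higher and 5082 lower with the main scaling. The direction and call of each of the 8 matrix genes were kept under that scaling.

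Of 20 other chondroitin and heparan sulfate proteoglycans, none rose and 11 fell by edgeR (0 higher at an unadjusted p under 0.05, and 0 higher and 10 lower by DESeq2). Cspg5, a transmembrane chondroitin sulfate proteoglycan of neurons and glia, fell to 163 ± 5.78 CPM with tunicamycin, against 258 ± 8.34 CPM with DMSO (SD, n = 6 and 4), and the syndecan Sdc3 to 559 ± 24.2 CPM, against 730 ± 26.7 CPM with DMSO. Of 26 genes of chondroitin sulfate synthesis, the pathway that adds the sugar chains to lecticans, 4 rose and 11 fell, or 3 and 17 under upper-quartile scaling. Csgalnact2, which starts the chain, rose to 31.5 ± 1.56 CPM, against 18.6 ± 1.16 CPM with DMSO. Chst15, which makes disulfated chondroitin, fell to 17.3 ± 0.791 CPM, against 36.8 ± 1.36 CPM with DMSO.

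Of 25 matrix proteases and their inhibitors, 4 rose and 13 fell. The tissue plasminogen activator gene Plat rose to 143 ± 5.41 CPM with tunicamycin, against 88.5 ± 9.74 CPM with DMSO, while Mmp14, a membrane-bound metalloproteinase that cuts fibronectin and other matrix proteins, fell to 14.3 ± 0.425 CPM, against 31.3 ± 2.15 CPM with DMSO. Of 19 receptors for these matrix molecules, 5 rose and 10 fell, or 2 and 13 under upper-quartile scaling. Itga5, the alpha subunit of the main fibronectin receptor, rose to 20.1 ± 1.30 CPM with tunicamycin, against 8.19 ± 0.912 CPM with DMSO, a log2 fold change of 1.29. Itgb5, a subunit of a vitronectin receptor, fell to 21.5 ± 0.898 CPM, against 37.2 ± 4.90 CPM with DMSO.

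Of 28 other matrix glycoproteins, 5 rose and 7 fell, or 4 and 11 under upper-quartile scaling. The laminin gene Lama4 rose to 10.7 ± 1.51 CPM with tunicamycin, against 6.36 ± 1.08 CPM with DMSO, and Sparcl1, an astrocyte protein that promotes synapse formation, fell to 661 ± 26.9 CPM, against 788 ± 45.4 CPM with DMSO. Of 14 TGF-beta ligands, receptors and Smads, the pathway whose ligand decorin binds, 7 rose and 4 fell. Their median log2 fold change was 0.12 and their mean -0.03, and the median was 0.00 under upper-quartile scaling. Skil, a repressor of Smads, rose by a log2 fold change of 0.67 and Ltbp3, which holds latent TGF-beta in the matrix, fell by 0.62 on the log2 scale.

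Of 14 genes of net-bearing neurons and net-binding factors, 3 rose and 6 fell, or 2 and 9 under upper-quartile scaling. Their log2 fold changes had a median of -0.06 and a mean of 0.00. Nptx2, an activity-regulated pentraxin secreted onto interneurons, rose to 80.7 ± 8.08 CPM with tunicamycin, against 38.2 ± 2.51 CPM with DMSO. Nptx1 (log2 fold change 0.28) and Sema3a (0.19), whose product binds to nets, also rose, and the pentraxin receptor Nptxr fell (-0.18). Pvalb, the marker of the interneurons that carry most nets in the cortex, was barely detected and was called lower, at 0.34 CPM with tunicamycin and 0.577 CPM with DMSO (log2 fold change -0.75; edgeR adjusted p = 0.025). The transcripts of net components were thus measured in cultures with little Pvalb RNA, and nets themselves were not measured.

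**Figure D5:**
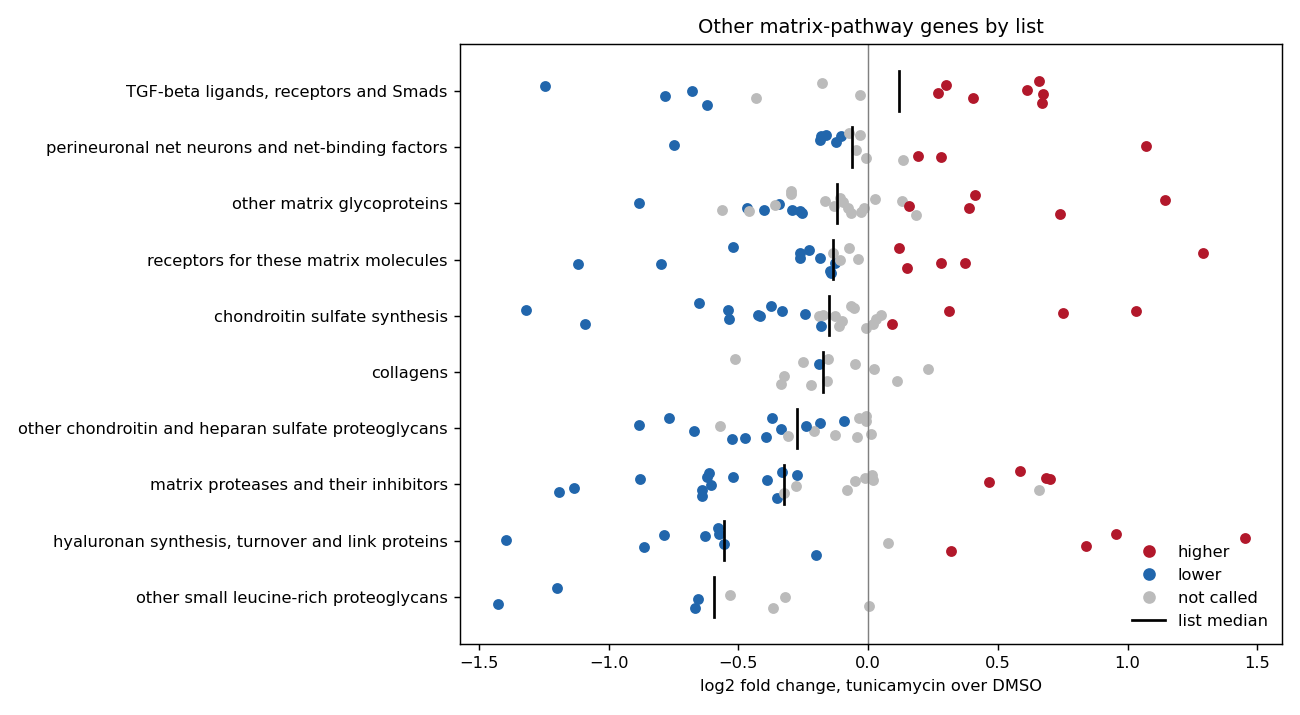
Log2 fold change, tunicamycin over DMSO, of each tested gene in 10 lists of the matrix pathway, 1 point per gene, coloured by its call in the edgeR fit, with list medians as black lines. The small leucine-rich proteoglycans (median -0.59) and the hyaluronan genes (-0.55) have the lowest medians in this fit, and the TGF-beta list (0.12) has the only one above 0.

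The libraries were read in 3 lanes, given by the names of their data files, with 2 tunicamycin and 2 DMSO libraries in lane 1 and 2 and 1 in each of lanes 2 and 3. Computed within lanes 1, 2 and 3, with no test, Tnc had log2 fold changes of 1.38, 1.29 and 1.42, and Fn1 of 1.15, 1.34 and 1.54. Among the lecticans they were -0.33, -0.51 and -0.41 for Ncan, and -0.38, -0.76 and -0.68 for Bcan. Vcan had -0.18, -0.32 and -0.44, and Acan -0.62, -0.31 and -0.21. Prelp had -2.79, -2.25 and -2.29. Hapln1 had -0.42, -0.84 and -1.04, and Dcn -0.14, -0.98 and -0.39. Tnr was the single gene of the 10 whose sign differed between lanes, at 0.12, -0.18 and -0.37. With lane as a term in the fit, each of the 8 tested genes kept its direction and its call.

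The counts do not mark strand, so reads of overlapping genes cannot be told apart. Prelp shares 9.68% of its exonic bases with the antisense gene Gm15851, which had no count in any library. Tnc shares 2.27% with 8030451A03Rik, which had at most 19 counts, Fn1 overlaps Apol7d, which had at most 6, and Tnr shares 3.44% with Gm38039, which had none. The authors' deposited table, drawn from these same libraries, lists 9 of the 10 genes as changed, all but Tnr. Prelp and Fn1, picked for their moves, are among them, and 64.3% of all genes tested were called in the fit made here. The table's log2 fold changes differ from the ones given here by at most 0.00905.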

How the data were processed

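Libraries of polyadenylated RNA were made with the TruSeq RNA v2 kit, in which strand is lost, and sequenced from 1 end for 50 bases, per the labels' protocols. The build mm10 and, with no roles, STAR 2.5.2b, Subread 1.5.1, featureCounts, FastQC 0.11.5 and DESeq2 are named per the submitters' processing notes. Not given in the sources used here are the annotation release, the strand setting of the counting and what was done with reads of several alignments. Whole-number counts per gene were deposited for each library and were used as they stand. The deposited tables of changed genes hold a log2 fold change, an adjusted p-value and a normalized signal per library, of which the log2 fold changes were set beside the fit made here.

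Identifiers were named from GENCODE M21 on GRCm38, and 48349 of 48709 matched. The 360 others held 0.0462% of counts and stayed in the totals. Samples were grouped by the labels. edgeR 4.0.16 in R 4.3.3 was run on all 10 libraries with TMM scaling, the filterByExpr filter and a robust two-sided quasi-likelihood test, with Benjamini-Hochberg adjustment over 15660 genes. The biological coefficient of variation was 0.049. CPM is counts per 1000000 of the library total, without TMM, and TPM uses union exon length. Between libraries of a group, chi-square per degree of freedom was 2.07 to 9.64, more than counting noise gives. The fits and permutation tests were first tested on simulated data.

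The matrix genes and the lists were chosen with earlier results of these data known. From each list the text names the 2 called genes with the smallest p, or the 1 in each direction, names counts of up to 3 in full, and says where a gene was added after its values were seen. Promoter windows came from RefSeq. The AP-1, TATAAA and CCAAT searches were added after the others gave no match. Protein sequences were not used here. Alternatives were other scalings and filters, DESeq2 1.42.0, lane terms, a replicate block and each library left out.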

Additional observations from a re-analysis of the deposited data

Results flagged for a closer look

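The Vcan share of the lectican counts per kilobase was 1.81% in DMSO replicate 2, against 1.47% to 1.52% in the other DMSO libraries, a sample far from the others of its group. Its Vcan level of 42.1 CPM was the highest of all 10 libraries. It was the single value so marked among 28 groups of values checked, and chance marks about 1 in 20.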

How the results depend on the processing

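Over 17 other fits across all genes, 10 of them without 1 library, 168 of 170 values of the matrix genes kept their direction and, for the 8 tested genes, their side of the threshold. The exceptions were Tnr without DMSO replicate 1 (-0.21, called; range without 1 library -0.21 to -0.031) and Dcn with a replicate block (-0.45, edgeR adjusted p = 0.0645). Same-numbered libraries of the groups did not deviate together (correlations -0.217 to 0.00852, and 0 of 4 DMSO libraries correlated best with its own number), so the block rests on a shared number only. It left 4416 genes called higher and 4398 lower, with 1 collagen gene higher and 1 lower, and 3 fibroblast, meningeal and mural markers higher and 2 lower. Under the block the lectican share differences were 1.33 points for Ncan and -1.56 for Bcan, and with 4 pairs no exact p can go below 0.125. Taken from raw counts in place of counts per kilobase, these were 0.947 and -1.20 points (adjusted exact permutation p = 0.0571). Leaving out 1 library gave 1.36 to 2.07 points for Ncan, -2.34 to -1.46 for Bcan and -0.0296 to 0.0975 for Acan, which changed sign without DMSO replicate 4 and was not called in any. Values that moved by more than 1 SD within a lane were the following log2 fold changes: in lane 1 Prelp -2.79, Dcn -0.14, Acan -0.62, Bcan -0.38, Hapln1 -0.42 and Tnr 0.12; in lane 2 Prelp -2.25, Dcn -0.98, Ncan -0.51 and Bcan -0.76; in lane 3 Prelp -2.29, Fn1 1.54, Acan -0.21, Hapln1 -1.04 and Tnr -0.37. Share differences within lanes 1, 2 and 3 were -0.291, 0.257 and 0.260 points for Acan and -0.559, -2.82 and -2.85 for Bcan, and 0.650 in lane 1 and 2.57 in lane 3 for Ncan. The causes were not tested. Prelp and Acan rest on the fewest counts.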
